A study of Rattus norvegicus with 17 samples.

Results

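Cytosolic ribosomal protein mRNAs were measured in colon mucosa of rats with a genetic form of colitis that had eaten a diet high or low in calcium. Members are the array probes whose gene name, as the scanner files give it, is that of a protein of the large (Rpl, Rplp) or small (Rps, Rpsa) cytosolic subunit, with the kinases named Rps6k left out. The rule took 112 of the 41012 probes that are not controls, 67 for the large and 45 for the small subunit, under 75 of 35561 gene names (44 large and 31 small). The rule used names alone and no measured value.

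A ribosome is built from a small subunit, which reads the messenger RNA, and a large subunit, which joins amino acids into protein. Each subunit is ribosomal RNA dressed with its own set of proteins, and the cell needs most of these proteins in equal numbers. In mammals most of their mRNAs begin with a C followed by a run of C and T, the 5′ terminal oligopyrimidine tract, through which the mTOR pathway switches their translation on and off together. In the colon these mRNAs are among the most abundant of all, and the dividing cells at the crypt base are known for high ribosome production.

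All 17 rats were females that were transgenic for human HLA-B27 and β2-microglobulin on an inbred Fisher 344 background, and were 8 to 10 weeks of age when the experiment began. The question the series poses is whether dietary calcium affects the colitis of this model. A Western-type purified diet held 120 mmol calcium per kg for the 8 high calcium rats and 30 mmol per kg for the 9 low calcium rats, with glucose making room for the extra calcium. Both groups carried the transgenes, so the samples analysed here include no rat without them. Scraped mucosa of each rat was hybridised in Cy5 against a Cy3 pool of all animals on an array of its own. Each value below is a log2 ratio of a rat to that pool, and each difference is the log2 mean on high calcium minus that on low calcium. It stands with its standard error (SE), from limma's fit over the 8 and 9 rats. P-values come from that fit, are two-sided, and are adjusted by Benjamini-Hochberg over all 27101 tested probes unless called unadjusted. Mucosal scrapings hold many cell types, and fewer cells of a type cannot be told apart from less RNA per cell.

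As a check of the labelled tissue, all 12 names of the colonocyte list had a probe bright enough to be tested, as did 5 of 7 goblet cell names, where 27101 of all 41012 probes were. So did 6 of 7 fibroblast, 5 of 6 smooth muscle, 7 of 8 macrophage, 6 of 6 neutrophil and 6 of 7 T cell names. The shares were lower for red cells (2 of 5), endothelium (3 of 5), B and plasma cells (5 of 8) and enteric neurons and glia (4 of 6). These shares count names, some of them alternative names of a gene, such as Jchain and Igj. A name without a probe counts as not tested, and the share over the array counts probes. The shares thus cannot rank the cell types. The share of probes well above background in Cy5 was between 60.0% and 72.0% per array. Rats 8 and 16, both on low calcium, stood apart. When each array was centred on its median in place of loess, which removes the trend of the ratio with brightness, the large subunit mean of rat 8 went from -0.22 to 1.32 and that of rat 16 from 0.23 to -1.46, each relative to the mean of the 17 rats. Centred on the median, rat 16's log ratios over all tested probes correlated with the 15 rats other than 8 (r from -0.83 to -0.66). With those of rat 8 the r was -0.90, although the labels give every rat the same dye. Rat 8 itself correlated with the same 15 rats at r between 0.73 and 0.92. After loess the correlation with the 15 rats lay between 0.071 and 0.48 for rat 16, and between -0.042 and 0.47 for rat 8. The labelled direction was kept for both, and the results on the subunits below are also given without them.

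The probes for ribosomal proteins lay at the bright end of the array. Their median brightness, the mean log2 intensity of both dyes, was 15.7, against 8.41 over all tested probes. A brightness of at least 14 was reached by 94 of the 111 tested members, or 84.7%, and by 3.89% of the other tested probes. Of the 112 probes 110 lay well above background on all 17 arrays, and 1 had a saturated spot on any array. The tested members number 111 (67 large, 44 small), so only 1 probe was lost to the filter on dim probes.

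The annotated start sites show the element by which these mRNAs are known. RefSeq's promoter table for the GRCr8 assembly held 60 of the 75 genes, in 61 entries. The following windows run 5′ to 3′ on the gene's strand, from 15 bases before the annotated start to the 15 bases from it on. Capitals mark a C followed by at least 4 C or T that begins at the annotated start. The first 6 carry the run, and the last 4 do not.
Rpl10, chrX:157205835-157205864, + strand: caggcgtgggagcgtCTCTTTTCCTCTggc
Rpl31, chr9:49143096-49143125, + strand: ccacaatccctcgcgCCTTTCCTTTCCaac
Rpl37a, chr9:81748076-81748105, + strand: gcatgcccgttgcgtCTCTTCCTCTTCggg
Rpl39, chrX:121195882-121195911, - strand: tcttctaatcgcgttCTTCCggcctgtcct
Rplp1, chr8:71290858-71290887, - strand: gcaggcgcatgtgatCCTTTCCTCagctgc
Rps7, chr6:50999431-50999460, - strand: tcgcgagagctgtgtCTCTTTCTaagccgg
Rpl4, chr8:73566462-73566491, + strand: taagttcttccttttcctgtgggagcagcc
Rplp2, chr1:205975906-205975935, + strand: cctttcgccgccggacgccgccgaggtcgc
Rps6, chr5:106420526-106420555, - strand: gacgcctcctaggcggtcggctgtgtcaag
Rpsa, chr8:128728864-128728893, + strand: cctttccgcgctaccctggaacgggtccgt

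They were chosen to show both kinds of start, from genes that the results below name and, in Rpl31, for the length of its run. Of the 61 entries 23, or 37.7%, had the run at the annotated start, against 858 of the 33408 other entries of the table (2.57%). The longest run held 12 bases, in Rpl10, Rpl31 and Rpl37a. Allowing the run to begin within 5 bases to either side gave 38 entries (62.3%), against 17.0% of the others. Rpl4 is such a case. Its run begins before the annotated start, so the windows depend on where the annotation sets the first base. Over the whole 300 bases of an entry, 250 before and 50 from the start on, CCGGAAG on either strand (the core bound by Ets factors such as GABP) was found in 19 entries (31.2%), against 8.71% of the others. AAGATGGCG, the core of the YY1 motif, was found in 3 (4.92%, against 1.73%), and TATAAA in 5 (8.20%, against 14.2%). These are matches of letters in a window and no evidence of binding. The 15 genes for which no entry was matched include Rpl10l, Rpl15, Rpl23a, Rpl27, Rpl30, Rpl32, Rpl7, Rpl8, Rps20, Rps25 and Rps29.

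No ribosomal protein probe differed between the diets past an adjusted p of 0.05, in a comparison where 0% of all tested probes did. At an unadjusted p under 0.05, limma's fit called 2 of the 67 large subunit probes, both lower on high calcium, and 0 of the 44 small subunit probes. The background for that count was 8.79% of all tested probes in either direction, with 4.84% lower and 3.95% higher. These counts move with single rats: leaving out each rat in turn gave 1 to 4 large and 0 to 2 small subunit probes, beside 1589 to 3084 of all tested probes in place of 2382. The differences of single probes ran from -0.15 to 0.065 in the large and from -0.11 to 0.075 in the small subunit. The 95% intervals of all 111 tested members lay between -0.30 and 0.28, or 1.23-fold lower and 1.21-fold higher on high calcium. Each interval is that of a single probe under the reported settings. Over the other settings tried, some estimates went beyond this range, as far as -0.94 for Rps6. In 104 of the 111 the interval lay within 0.25 of 0. The groups overlapped in every member, and the same count over all tested probes is not given here.

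Most members were slightly lower on high calcium, by less than the spread between rats. The median difference over the large subunit probes was -0.036, with 56 lower and 11 higher, and over the small subunit probes -0.028, with 33 lower and 11 higher. Over all tested probes it was 0.0069, with 46.0% lower. With median centring in place of loess the medians turned to 0.012 and 0.021. Without rats 8 and 16 they were -0.043 and -0.041. The SD between rats of the same diet was 0.11 for the large and 0.12 for the small subunit mean, so the medians were a fraction of it. The members move together from rat to rat, as described below, so the counts of lower members are not independent of each other.

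**Figure D1:**
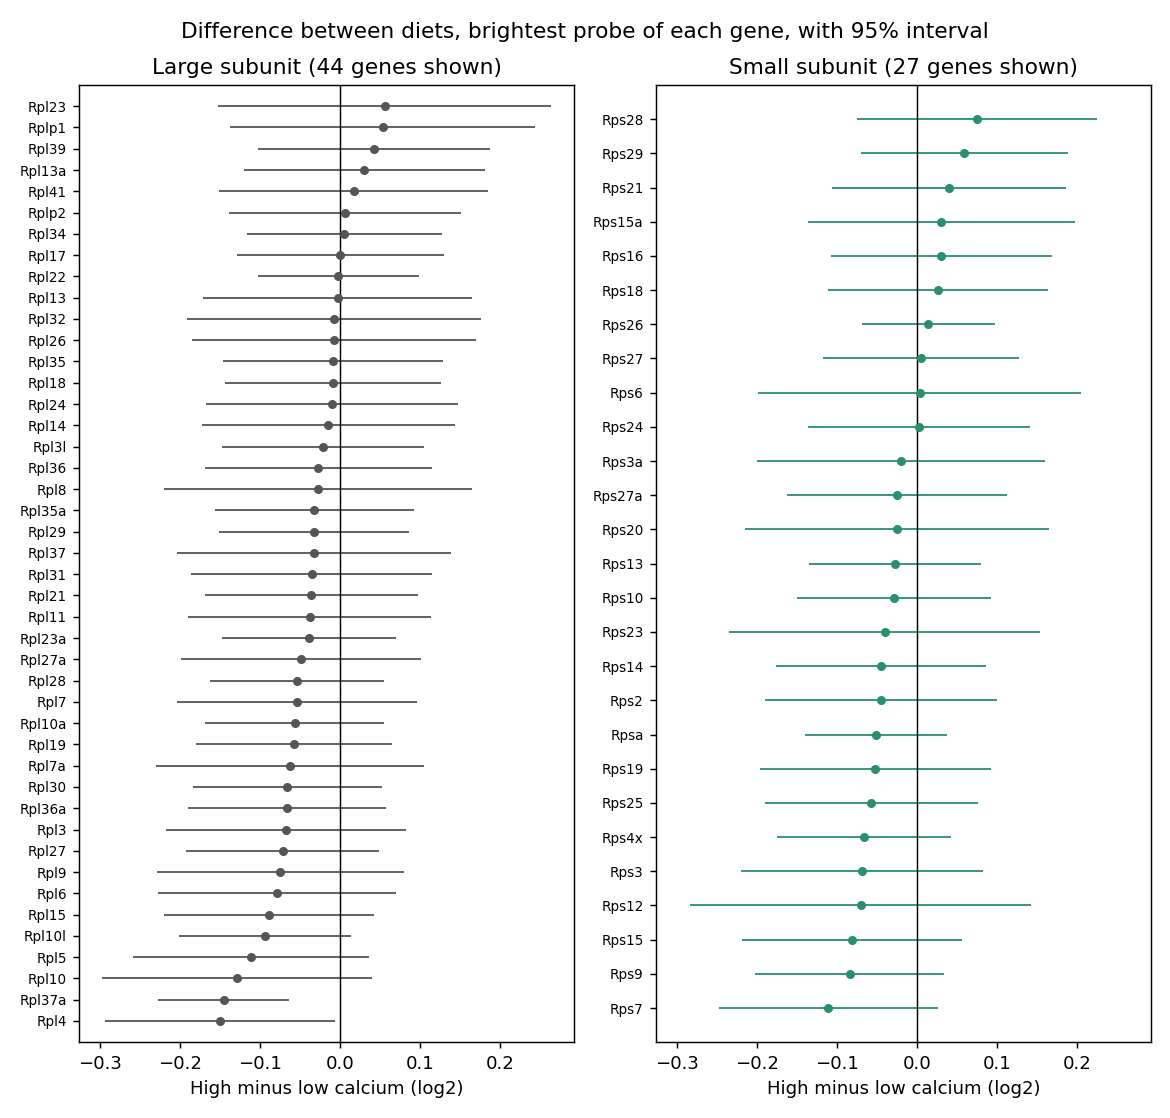
Difference between the diets for the ribosomal protein genes shown, each by its brightest probe (x axis, high minus low calcium, log2), with large subunit genes on the left and small subunit genes on the right; points are estimates over 8 and 9 rats and lines their 95% intervals from limma's fit. The intervals of Rpl37a and Rpl4 lie below 0, all others shown include 0, and none passed after adjustment over all tested probes.

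In the large subunit the smallest p belonged to Rpl37a, a small zinc-binding protein, whose long pyrimidine run is shown above. Its log2 ratios were -0.28, -0.16 and -0.11 (lowest, median, highest) in the 8 high calcium rats and -0.11, -0.055 and 0.12 in the 9 low calcium rats. All 8 high calcium rats lay below the low calcium median, and the groups overlapped only between rat 9 on high calcium (-0.106) and rat 4 on low calcium (-0.110). The difference was -0.15 ± 0.040 (SE), 1.11-fold lower, with an unadjusted p of 0.0014 and an adjusted p of 0.21 in limma's fit. This probe had a brightness of 7.29, far below most members, and lies at chr9:71987526-71987585 (rn3). The scanner files describe its target as similar to 60S ribosomal protein L37a, and which RNA the probe reads was not tested. On the Cy5 channel alone its difference was -0.058.

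Rpl4, a protein that lines the tunnel through which the new protein leaves, ran from -0.44 over -0.12 to 0.11 on high and from -0.14 over 0.035 to 0.29 on low calcium. The groups overlapped widely, with rat 18 the lowest of all and rat 16 the highest. Its difference was -0.15 ± 0.069 (unadjusted p = 0.042, adjusted p = 0.55 in limma's fit). Without rat 18 it was -0.10, and without rats 8 and 16 it was -0.13, with unadjusted p of 0.11 and 0.077 in the same limma fit.

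Rpl10, which joins the large subunit late in its assembly near the catalytic centre, ran from -0.23 over 0.11 to 0.44 on high and from 0.050 over 0.20 to 0.55 on low calcium. Its difference was -0.13 ± 0.081, and its second probe gave -0.071. Rpl5, which with Rpl11 and a small ribosomal RNA forms a particle that can bind the p53 regulator Mdm2, ran from 0.10 over 0.30 to 0.51 on high and from 0.16 over 0.46 to 0.70 on low calcium. Its difference was -0.11 ± 0.071, and its 3 probes lay between -0.11 and -0.088. Its partner Rpl11 differed by -0.038 ± 0.073. Neither passed, and for both genes the groups overlapped.

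The large subunit genes with the smallest p among those higher on high calcium were Rpl39, Rplp1, Rpl23, Rpl13a and Rpl41, and none reached an unadjusted p of 0.05 in limma's fit. Rpl39, which lies in the exit tunnel, differed by 0.042 ± 0.070. Rpl23, another protein tied to Mdm2, differed by 0.056 ± 0.10 and had the widest interval of them, from -0.15 to 0.26. Its values ran from 0.35 over 0.44 to 0.89 on high and from 0.016 over 0.58 to 0.86 on low calcium, so its low calcium median was the higher one although its mean difference was positive. Rpl13a, known for a role in silencing inflammatory mRNAs outside the ribosome, differed by 0.030 ± 0.072. Rpl41, a very short peptide at the joint of both subunits, differed by 0.017 ± 0.081. The signs of these 5 are not settled, since each turned under at least 2 of 30 other settings.

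The stalk, a flexible arm of the large subunit that recruits elongation factors, is made of Rplp0, Rplp1 and Rplp2. Rplp0 carries the name Arbp on this array and is no member by the naming rule, but it was measured. Rplp1 ran from 0.24 over 0.45 to 0.54 on high calcium and from -0.14 over 0.45 to 0.79 on low calcium. The low calcium rats spanned the wider range, with rat 8 the lowest and rat 16 the highest, and without these they ran from 0.21 to 0.58. The differences were -0.054 ± 0.047 for Rplp0, 0.053 ± 0.092 for Rplp1 and 0.0061 ± 0.070 for Rplp2. None of the 3 passed. Without rats 8 and 16 the Rplp1 difference was 0.034 ± 0.065.

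In the small subunit the gene with the smallest p was Rps7, at -0.11 ± 0.066 (unadjusted p = 0.11, adjusted p = 0.68 in limma's fit). It ran from -0.36 over -0.036 to 0.10 on high and from -0.16 over 0.034 to 0.20 on low calcium, with overlap. The scanner files place its probe on chromosome 15 of rn3, while RefSeq places the gene on chromosome 6 of GRCr8. Ribosomal protein genes have many near-identical processed copies, and which copy a probe reads was not tested. Among the 60 genes with a RefSeq entry the brightest probe lay on the gene's own chromosome in 52 and elsewhere in 8, namely Rpl10a, Rpl21, Rpl35a, Rpl36, Rpl36a, Rpl9, Rps10 and Rps7.

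The small subunit genes with the smallest p among those lower also include Rps9 and Rps4x. Rps9, at the entry of the mRNA channel, differed by -0.084 ± 0.057, and Rps4x, an X-linked member, by -0.067 ± 0.052. Among those higher, Rps28, which sits at the mRNA exit, differed by 0.075 ± 0.072 and Rps29, a zinc-binding protein of the head, by 0.059 ± 0.062. Rps21 (0.040 ± 0.071), Rps16 (0.030 ± 0.066), whose tail reaches the transfer RNA, and Rps18 (0.026 ± 0.066), at a bridge to the large subunit, lay closer to 0. No p among these genes was below 0.05 before adjustment in limma's fit.

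Rps6, the protein phosphorylated by the S6 kinases downstream of mTOR, showed no difference in its mRNA at this precision (0.0034 ± 0.097, interval -0.20 to 0.21). Its values ran from 0.44 over 0.56 to 0.80 on high and from 0.17 over 0.70 to 1.02 on low calcium, with rats 8 and 16 again at the ends. Without these the low calcium rats ran from 0.20 to 0.75, and the difference was 0.0084 ± 0.082. It had the largest SE of the small subunit genes described here. Rps3, at the mRNA entry, differed by -0.069 ± 0.073. Rps19, the gene most often mutated in Diamond-Blackfan anaemia, differed by -0.052 ± 0.069. Rps27a, made as a fusion with ubiquitin, differed by -0.025 ± 0.066, and Rpsa, also known as a laminin receptor precursor, by -0.051 ± 0.043.

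Paralogs with tissue-restricted expression gave no difference past the threshold. Rpl3l, a muscle-restricted relative of Rpl3, had a brightness of 8.59 and differed by -0.021 ± 0.061, and Rpl3 by -0.068 ± 0.072. Rpl10l, known from testis, differed by -0.094 ± 0.052 at a brightness of 10.2. RefSeq now gives the name Rpl10l as a synonym of Rpl10l1. It lists the accession of both Rpl36a probes as Rpl36al1, and that of the brighter Rpl37 probe as Rpl37l1. Rpl22 differed by -0.0020 ± 0.048, Rps27 by 0.0052 ± 0.059 and Rpl36a by -0.066 ± 0.059. Rpl7 differed by -0.054 ± 0.072, and Rpl7l1, which is not a member as the array names its probe, by -0.083 ± 0.051. Rpl22l1, Rps27l and Rpl36al had no tested probe under these names and were not analysed here.

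Different probes of a gene mostly gave the same direction. Of the 25 genes on several tested probes 4 had probes of differing sign, Rpl18, Rpl37 and Rps15a among them, and none of those probes had an unadjusted p under 0.05. The Rpl37 probe that was higher on high calcium had a brightness of 8.73, and the other 17.3. The scanner files place them on opposite strands of rn3, and which RNA each reads was not tested. The 5 probes of Rpl21 lay between -0.067 and -0.036, the 4 of Rpl29 between -0.051 and -0.021 and the 4 of Rps2 between -0.045 and -0.024. Each of the 112 probes lists more than 1 accession in the scanner files.

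The larger variation lay between single rats, and it was shared by both subunits. The large subunit mean per rat ran from -0.023 over 0.10 to 0.21 on high calcium and from -0.097 over 0.16 to 0.35 on low calcium. The small subunit mean ran from -0.00049 over 0.10 to 0.24 and from -0.11 over 0.17 to 0.34. The group means were 0.10 ± 0.072 (SD, n = 8) and 0.14 ± 0.14 (SD, n = 9) for the large subunit, and 0.11 ± 0.076 and 0.14 ± 0.15 for the small. Without rats 8 and 16 the low calcium means were 0.14 ± 0.099 (SD, n = 7) and 0.15 ± 0.11. The difference in spread was not tested. All 4 group means lay above the pool, and with the same dye on every rat a dye effect and a true excess over the pool cannot be told apart.

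**Figure D2:**
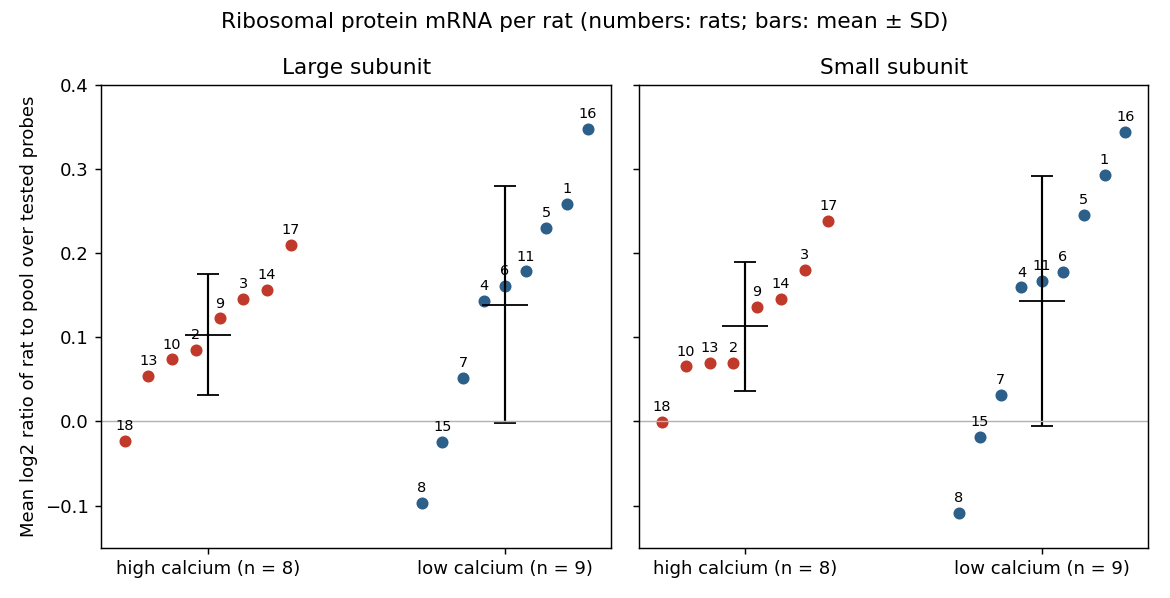
Mean log2 ratio of each rat to the pool over 67 large subunit probes (left) and 44 small subunit probes (right), by diet; points are rats with their numbers, spread sideways in order of their value, and bars the group mean ± SD. The groups overlap in both panels, and under the settings plotted low calcium rats 16 and 8 are the highest and the lowest.

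Under the reported settings rat 16 was highest (0.35 large, 0.34 small), followed by rat 1 (0.26 and 0.29), rat 5 (0.23 and 0.25) and rat 17 (0.21 and 0.24). Rat 8 was lowest (-0.097 and -0.11), next to rat 15 (-0.024 and -0.018) and rat 18 (-0.023 and -0.00049). These 4 highest and 3 lowest rats held the same ranks in both subunits. Which rats lie at the ends depends on the processing. Without background correction rat 16 ranked 5 of 17 in both subunits, with rat 1 the highest, and rat 8 ranked 15, with rat 15 the lowest. With the scanner software's processed signals rat 1 was again the highest in both subunits, and rat 18 on high calcium the lowest in the large. On Cy5 alone the highest were rat 11 in the large and rat 5 in the small subunit, and the lowest rats 18 and 15. In the deposited matrix high calcium rats 14 and 10 were the highest and the lowest in the large subunit, and rats 14 and 7 in the small. The large and small subunit means of a rat never differed by more than 0.034, in rat 3, which is small beside the range of 0.45 over all rats. In rat 16, 102 of the 111 members lay above the pool, in rat 1 it was 106, and in rat 8 it was 26. Other probes with a brightness of at least 14, a set not matched to the members in brightness, had means of 0.089 in rat 16 and -0.087 in rat 8. These lay in the same direction but were smaller, and in the other 15 rats the means lay between -0.066 and 0.031. The part that brightness has in the members' means was not tested.

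**Figure D3:**
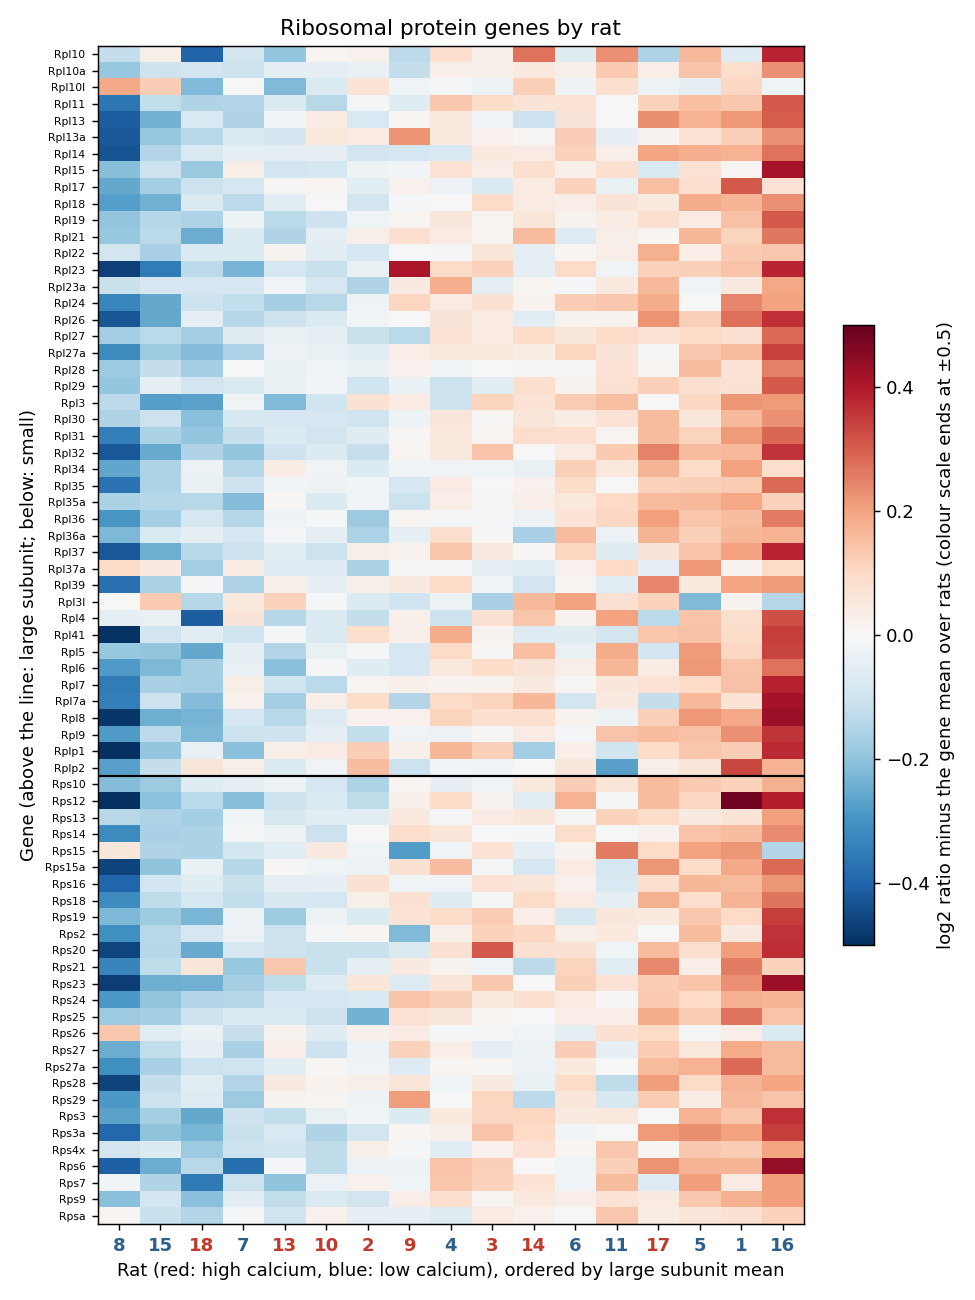
Log2 ratio of the brightest probe of each gene shown (rows, large subunit above the line and small subunit below) in each of the 17 rats (columns, ordered by the large subunit mean), with the mean of each gene over the rats subtracted; red is above and blue below that mean, and rat numbers are red for high and blue for low calcium. Most genes of both subunits are blue in rats 8, 15 and 18 and red in rats 1, 5 and 16, while Rpl10l, Rpl37a, Rpl3l, Rps15 and Rps26, all below a brightness of 14, follow this less.

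Expressed as a correlation over the 17 rats after the group means were removed, pairs of large subunit probes had a median r of 0.69 (quartiles 0.49 and 0.82) and pairs of small subunit probes 0.72 (0.45 and 0.85). Pairs of a large and a small subunit probe had 0.71, so the subunits did not fall apart into separate groups. Without rats 8 and 16 these medians were 0.61, 0.64 and 0.62 over 15 rats. Members paired with other bright probes had a median of 0.13 (quartiles -0.27 and 0.55), and with all other tested probes -0.050 (-0.30 and 0.19). The medians of these pairs without rats 8 and 16 were 0.0032 and 0.0068. These pairs share arrays, dye and brightness, and the values are a description. On the Cy5 channel alone, which makes no use of the pool, the medians were 0.47 within the large and 0.43 within the small subunit, and 0.032 with other bright probes. With the scanner software's own processed signals they were 0.60, 0.64 and -0.053. With median centring they were 0.98, 0.98 and 0.96, so under that setting members and other bright probes moved alike.

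**Figure D4:**
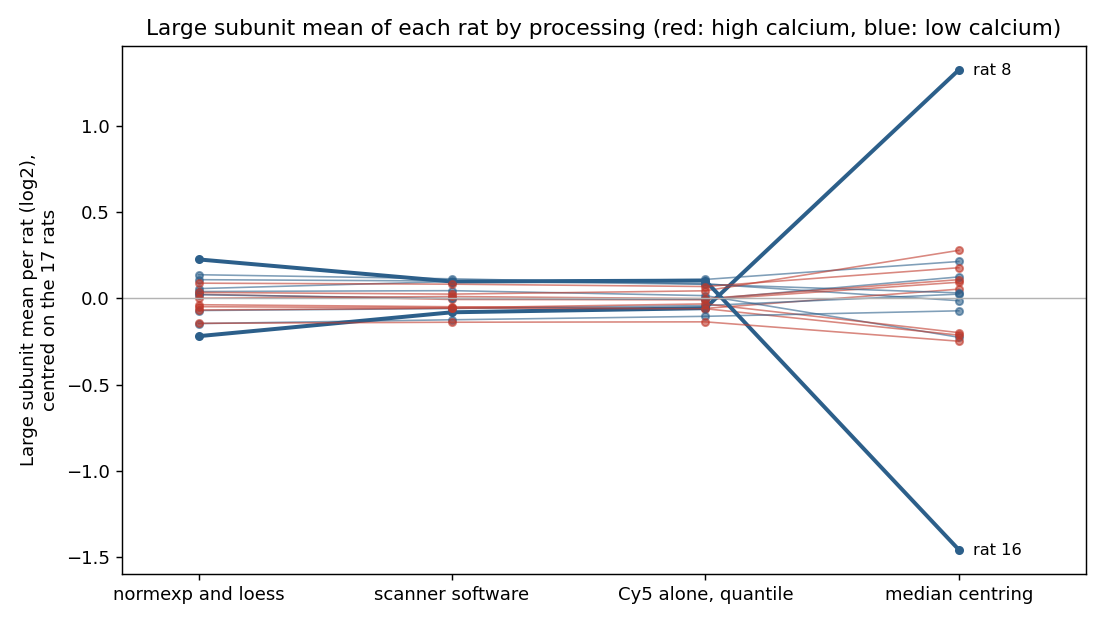
Large subunit mean of each rat relative to the mean of the 17 rats (y axis, log2) under 4 ways of processing the same arrays (x axis); lines join a rat, red for high and blue for low calcium, with rats 8 and 16 drawn thick. Between the reported loess setting and median centring rats 8 and 16 change places at the ends of the range, and with median centring they reach 1.32 and -1.46, while the other rats stay between -0.25 and 0.28.

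The arrays were placed on 5 slides, of which 4 held 2 rats of each diet and the last held rat 1 alone. Within those 4 slides the high minus low difference of the large subunit mean was -0.13, -0.098, 0.13 and 0.016, and that of the small subunit mean -0.13, -0.11, 0.15 and 0.045. The direction thus differed between slides. The first difference includes rat 16 and the third rat 8. Without rat 16 the first was -0.027 (large) and -0.034 (small), and without rat 8 the third was 0.054 and 0.077, each with rat 4 or rat 7 as the only low calcium rat. With the slide as a block in limma's fit the median differences were -0.024 and -0.015, with 45 of 67 and 28 of 44 probes lower, and no member passed the adjusted threshold.

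**Figure D5:**
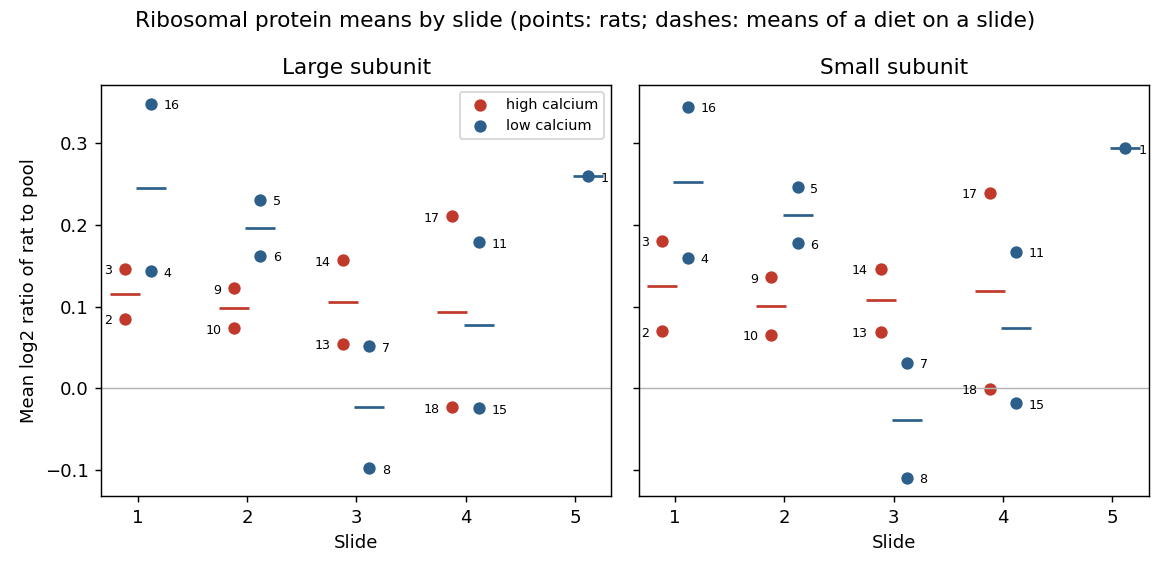
Large (left) and small (right) subunit mean of each rat (y axis, log2 ratio to the pool) by slide (x axis); points are rats with their numbers, red for high and blue for low calcium, and dashes the mean of a diet on a slide. High calcium lies lower on slides 1 and 2 and higher on slides 3 and 4, and slide 5 holds only rat 1.

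Genes with and without the pyrimidine run at the annotated start had similar shares lower on high calcium. Of the 23 genes with the pyrimidine run at the annotated start, 16 were lower and 7 higher on high calcium, with a median of -0.032. Of the 37 without it, 27 were lower and 10 higher, with a median of -0.029. The shares and medians of both sets lie close together, and no test was made. The run was found within 5 bases of the start in 38 of the 61 entries, against 23 at the start. Some genes counted as without it, such as Rpl4, thus have it nearby, so the split cannot separate genes with and without the tract.

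Other genes of protein synthesis were read from the same fit, by lists of names. No list had a gene past the adjusted threshold, and the counts that follow are at an unadjusted p under 0.05 in limma's fit, which 8.79% of all tested probes had (4.84% lower and 3.95% higher). Of 31 tested initiation factors, which load mRNA onto the small subunit, 26 were lower with a median of -0.048, and 6 of them (19.4%) were called, all lower. Eif1ax differed by -0.18 ± 0.053, Eif2s2 by -0.17 ± 0.069 and Eif3e by -0.18 ± 0.079, with adjusted p of 0.29, 0.48 and 0.51 in limma's fit. Of 16 tested elongation factors and other mRNAs that start with a pyrimidine tract, 11 were lower with a median of -0.034, and 1 was called, Vim (-0.26 ± 0.081), which is also abundant in fibroblasts. Nap1l1 differed by -0.11 ± 0.059 and the elongation factor Eef1a1 by -0.14 ± 0.074.

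Of 45 tested genes of ribosome biogenesis, the nucleolar factors that make and trim ribosomal RNA, 33 were lower with a median of -0.033. Only Rrp9 was called, and it was higher (0.11 ± 0.046). Nat10 differed by 0.10 ± 0.051 and Polr1d, an RNA polymerase subunit, by -0.083 ± 0.052. Of 63 tested mitochondrial ribosomal proteins, which build a separate ribosome, 44 were lower with a median of -0.015, and 2 (3.17%) were called, Mrpl35 (-0.12 ± 0.056) and Mrpl45 (-0.092 ± 0.044), both lower. Mrpl47 differed by -0.15 ± 0.075. A further list names mTOR and S6 kinase genes together with others, such as the Rps6ka kinases, Myc, Max and Mdm2. Of its 19 tested genes 7 were lower, with a median of 0.0068, and 1 was called, the kinase Rps6ka5 (0.13 ± 0.057). Eif4ebp1, the translational brake released by mTOR, differed by -0.13 ± 0.068 over 7 and 9 rats, and its activator Rheb by -0.13 ± 0.067.

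Markers of several cell types differed by more than the ribosomal proteins, without passing. All 6 tested fibroblast names were lower on high calcium with a median of -0.51, the smallest p being that of Dcn (-1.03 ± 0.22). All 6 neutrophil names were lower (median -0.38), with the smallest p in Mmp9 (-1.01 ± 0.21), and 6 of 7 macrophage names (median -0.35), with the smallest p in Gpnmb (-0.72 ± 0.16). Lum, Col1a1, Itgam, Ncf1, Lyz2 and Trem2 were lower as well. Of the 12 colonocyte names 11 were higher (median 0.12), with the smallest p in Guca2a (0.32 ± 0.18), followed by Krt20 and Aqp8, and of 5 goblet cell names 4 (median 0.26), with Tff3 at 0.29 ± 0.086, Muc2 at 0.23 ± 0.071 and Clca1 at 0.45 ± 0.18. None of these passed the adjusted threshold in limma's fit, where the smallest adjusted p was 0.14. The mean of the fibroblast list per rat ran from -0.93 to 0.22 on high and from -0.19 to 0.56 on low calcium.

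The other lists had medians closer to 0 than the fibroblast, neutrophil and macrophage lists. Of the 6 T cell names 5 were lower (median -0.073), with Cd2 at -0.25 ± 0.077, Cd3g at -0.14 ± 0.068 and Cd3e at -0.070 ± 0.058. The medians were -0.12 for 5 B and plasma cell names (Jchain -0.37 ± 0.14, Mzb1, Sdc1), -0.14 for 3 endothelial names (Vwf -0.28 ± 0.080, Kdr, Cdh5), -0.088 for 5 smooth muscle names (Tagln -0.31 ± 0.14, Des, Actg2), 0.035 for 4 enteric neuron and glia names (Sox10, Ret), -0.11 for Hbb and Alas2 of red cells, and -0.029 for 8 proliferation names (Rrm2, Pcna, Mcm5). The part of cell makeup in the ribosomal protein values was not tested.

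Set beside the ribosomal protein means, the lists gave differing pictures rat by rat. The list of elongation factors and other pyrimidine tract mRNAs shared its 3 highest and its 3 lowest rats with both subunits. Highest were rats 16 (0.19), 1 (0.17) and 5 (0.12), and lowest rats 8 (-0.12), 18 (-0.10) and 15 (-0.066). Rat 15, near the bottom for both subunits, was also lowest for the proliferation list (-0.26) and for ribosome biogenesis (-0.19). Rat 5, next after rats 16 and 1 in both subunits, had the highest ribosome biogenesis mean (0.13) and a proliferation mean of 0.17. Rat 16, the highest for ribosomal proteins under the reported settings, had 0.13 for proliferation and 0.053 for ribosome biogenesis. Rat 8, the lowest under these, had -0.043 and -0.027 for these lists and the highest fibroblast mean (0.56). Rat 18 had the lowest fibroblast mean (-0.93) and ranked next to rats 8 and 15 at the bottom for ribosomal proteins, so under these settings both ends of the fibroblast range lay among the 3 rats with the lowest ribosomal protein means.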

How the data were processed

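The deposited scanner files hold spot intensities of both dyes and a log10 ratio of the processed signals, which per the file headers were made with Agilent Feature Extraction 9.5.1.1 (9.5 in the submitters' notes). A deposited matrix of log2 values, for which no source used here says how the authors made it, served as an alternative only. With limma 3.58.1 (R 4.3.3), background was corrected by normexp (offset 50) and each array was normalised by loess, in which control and outlier spots had weight 0. Spots of a probe were averaged. The filter asked for 8 or more arrays with Cy5 well above background and left 27101 of 41012 probes. Loess brings each array's log ratios to 0 along its brightness, so a change shared by most probes of a brightness is not seen, and members make up 94 of the 1143 tested probes with a brightness of at least 14. Per the labels every rat was in Cy5 and the pool in Cy3. Whether the arrays of rats 8 and 16 follow this was not settled. The number of rats limits the precision.

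The fit was lmFit and eBayes with diet as its only term, p-values were adjusted by Benjamini-Hochberg over all tested probes with a threshold of 0.05, and the code was tested on simulated data. The labels number the animals, and each number was taken as a separate rat. Of the member probes 92 matched RefSeq (GRCr8) through an accession, 19 through a symbol and 1 through a synonym. The members and the lists were chosen with earlier results of these data known, so no p is given for a score over members. Genes named are, in each subunit, the 5 with the smallest unadjusted p in each direction, a set of stalk, paralog and well-known members, and the 3 with the smallest p in each other list, each by its brightest probe. The values of some genes under this rule are not reported here.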

Additional observations from a re-analysis of the deposited data

Results flagged for a closer look

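For the 35 named genes, each diet group was searched for a single rat far from the others of its group by Dixon's test at the 95% level, which chance passes in about 1 group in 20. Of the 74 groups searched, single genes and subunit means included, 5 passed. Rat 17 on high calcium was highest for Rps28 at 0.42 (next rat 0.27), for Rpl39 at 0.22 (next 0.023) and for Rps27a at 0.32 (next 0.17). It also had the highest mean of both subunits in its group. Rat 9 on high calcium was highest for Rpl23 at 0.89 (next 0.60). Rat 5 on low calcium was highest for Rpl37a at 0.12 (next -0.0015), and without it the Rpl37a difference was -0.13, with an unadjusted p of 0.0031 and an adjusted p of 0.28 in limma's fit.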

How the results depend on the processing

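No ribosomal protein probe passed the adjusted threshold under any setting tried. Leaving out each rat in turn, the count over all tested probes ran from 0 to 193, with 193 without rat 3 on high calcium and 38 without rat 16 on low calcium; it was 1 without rats 8 and 16 together, a setting chosen after seeing the data. The median difference stayed between -0.069 and -0.014 (large) and -0.070 and -0.0048 (small) without single rats. It moved by more than the spread between rats only with loess followed by scaling between arrays, to -0.19 and -0.17, where rat 11 lay 1.49 above the mean of the rats, and it changed sign only with median centring. The SD between rats of the large and small subunit means, added after seeing the data, was 0.534 and 0.530 with median centring, 0.446 and 0.428 with loess and scaling, and 0.0719 and 0.0710 on Cy5 alone; the cause was not tested. Without rats 8 and 16 it was 0.085 and 0.094. Of the 35 named genes 15 kept their sign in every setting and 20 turned at least once. No paired analysis was possible because the replicate numbers of the labels number the animals through and the diets share none. The median SE was 0.065 for large and 0.066 for small subunit probes. It was 0.059 for other probes with a brightness of at least 14 and 0.057 over all tested. The unadjusted count over all tested probes ran from 780 with median centring to 3430 with array weights.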
